A study of Homo sapiens with 4 samples.

Results

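Granule and prohormone processing genes were examined in SK-N-AS, an established line of human neuroblastoma cells, after exposure to BG-P400-TAT and without it. They are 10 genes chosen by name: the granins CHGA, CHGB, SCG2, SCG3 and VGF, and SCG5, PCSK1, PCSK2, CPE and PAM, which serve prohormone processing. Of these, 8 were measured among 17687 genes that the platform annotation names by 1 symbol, each by 1 probe set. PCSK1 and PCSK2 carried no named probe set and were not analysed here. The treated group was 2 arrays of cells that received 30 µM BG-P400-TAT for 48 h. The untreated group was 2 arrays of cells that received phosphate-buffered saline without the compound for 48 h. By the series title the compound targets the norepinephrine transporter together with an integrin that binds thyroid hormone, and the design text asks for its effect on expression genome-wide. All 4 arrays came from 1 line grown in serum-containing medium, at 1 dose and 1 time. The design text calls the arrays of a group biological replicates, but no label says whether they came from separate cultures. The p-values therefore cover only the spread between these samples, which may be technical.

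Neuroendocrine cells store peptides and amines in dense-core granules and release them when calcium rises. Granins are acidic proteins that aggregate in the trans-Golgi network, help granules form and are themselves cut into smaller peptides. Prohormones are cut after pairs of basic residues by the convertases encoded by PCSK1 and PCSK2, the exposed basic residues are trimmed by carboxypeptidase E, the product of CPE, and the end of many peptides is amidated by the enzyme encoded by PAM. SCG5 encodes the chaperone that helps the PCSK2 convertase mature. Sympathoadrenal cells and many neuroblastomas carry such granules, and chromogranin A, the product of CHGA, is used as a tumour marker.

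Promoter windows of the measured genes are shown because cAMP response elements, the DNA sites of the CREB family, are known in granin promoters. RefSeq windows of 300 bases on GRCh38.p14, from 250 before to 50 after the start base, were given for 6 of the 8 measured genes. SCG2 and CHGB had no window. Those of CHGA (chr14:92922900-92923199, plus strand) and VGF (chr7:101165520-101165819, minus strand), both above the negative controls, and of SCG3 (chr15:51681253-51681552, plus strand) and SCG5 (chr15:32641460-32641759, plus strand), both below them, read as follows, 5′ to 3′, with TGACGTCA and its core TGACG in capitals on either strand.
CHGA: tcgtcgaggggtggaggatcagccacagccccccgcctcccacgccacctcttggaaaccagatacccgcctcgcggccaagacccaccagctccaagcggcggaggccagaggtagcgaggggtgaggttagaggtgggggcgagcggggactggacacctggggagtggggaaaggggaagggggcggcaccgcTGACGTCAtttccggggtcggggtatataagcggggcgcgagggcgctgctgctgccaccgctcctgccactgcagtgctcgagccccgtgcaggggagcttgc
VGF: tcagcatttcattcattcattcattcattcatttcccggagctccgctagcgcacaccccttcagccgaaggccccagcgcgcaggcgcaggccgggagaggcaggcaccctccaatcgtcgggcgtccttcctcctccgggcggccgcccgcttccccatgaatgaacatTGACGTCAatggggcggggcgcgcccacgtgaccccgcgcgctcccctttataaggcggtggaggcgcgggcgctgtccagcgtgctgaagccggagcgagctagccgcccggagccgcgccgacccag
SCG3: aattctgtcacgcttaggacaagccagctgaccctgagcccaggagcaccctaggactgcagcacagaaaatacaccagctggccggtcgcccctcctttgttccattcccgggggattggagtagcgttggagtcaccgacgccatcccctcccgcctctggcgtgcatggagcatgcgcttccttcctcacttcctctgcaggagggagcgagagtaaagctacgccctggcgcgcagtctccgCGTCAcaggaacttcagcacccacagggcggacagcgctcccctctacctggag
SCG5: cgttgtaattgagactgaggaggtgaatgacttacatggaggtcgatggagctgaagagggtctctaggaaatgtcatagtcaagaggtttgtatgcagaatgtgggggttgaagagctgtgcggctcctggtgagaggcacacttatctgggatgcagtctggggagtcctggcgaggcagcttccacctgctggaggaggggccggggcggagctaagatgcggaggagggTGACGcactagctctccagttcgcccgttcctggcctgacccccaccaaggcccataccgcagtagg
The full element TGACGTCA, which reads the same on both strands, was found in the windows of CHGA, at positions -54 to -47 with the start base as 0, and of VGF, at -79 to -72. It was found in 1.85% of all 35116 windows. SCG3 held 1 copy of the core TGACG, on the reverse strand at -4 to 0, and SCG5 held 1, on the forward strand at -17 to -13. CPE and PAM, which also stood above the negative controls, held no full element. CPE held 2 copies of the core, and PAM held 1 copy over its 3 windows. Whether the element bears on the level of these genes was not tested. The core, counted also inside a full element, was found in 24.6% of all windows. A TATAA stretch lay on the forward strand at -29 to -25 in CHGA and at -30 to -26 in VGF, against 20.4% of all windows with that stretch on either strand. These are matches of letters in these windows, chosen after the sequences were seen.

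**Figure D1:**
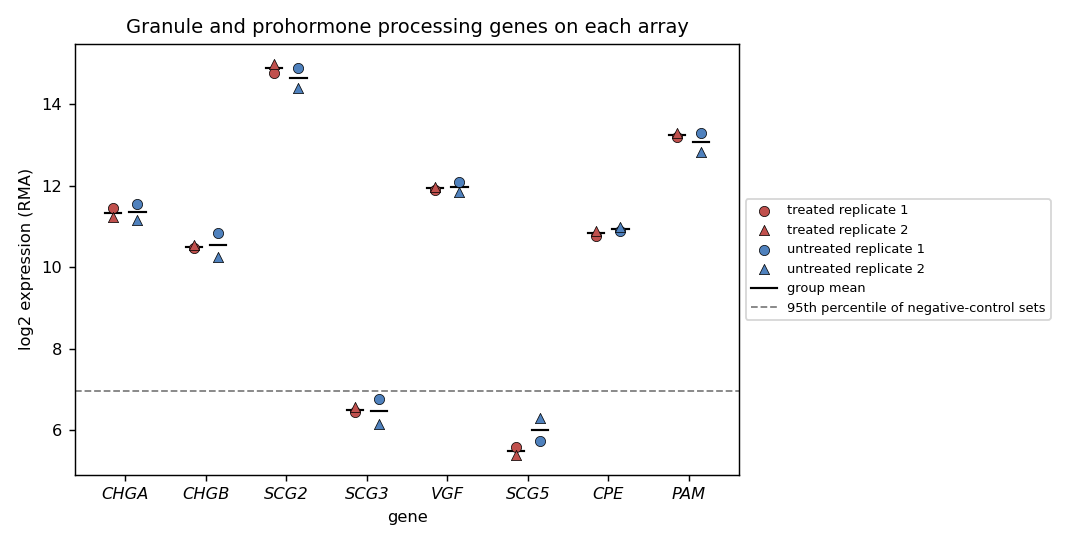
Log2 expression (vertical axis) of the 8 measured genes on each array, with treated arrays in red left of untreated arrays in blue, circles for replicate 1, triangles for replicate 2 and bars for the group means. The dashed line marks 6.96, the negative controls' 95th percentile; SCG3 and SCG5 alone among the 8 lie under it on every array.

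SK-N-AS cells stood well above the arrays' negative controls for 4 of the 5 granins, CPE and PAM, and not above them for SCG3 and SCG5. A level is called above the limit where it exceeds 6.96 on the log2 scale, the 95th percentile of 612 negative-control sets averaged over the 4 arrays. In untreated cells 6 of the 8 genes exceeded it, as did 46.3% of all probe sets and 49.1% of the genes named by 1 symbol. Since each probe set has its own brightness, levels are set only against this limit and between arrays, not between genes. CHGB lay above the limit, at 10.5 in treated and 10.54 in untreated cells, and SCG3 below it, at 6.51 in treated and 6.46 in untreated cells. Array by array, the same percentile taken on that array alone was 7.19 and 7.25 on the treated and 7.31 and 7.64 on the untreated arrays. The same 6 genes exceeded this own limit on all 4 arrays.

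Among the granins, SCG2, which encodes secretogranin II, the precursor of secretoneurin, had a log2 expression of 14.76 and 14.99 on the treated arrays and 14.89 and 14.39 on the untreated arrays. Untreated replicate 2 was the lowest, and the groups overlapped. The means of SCG2 were 14.87 ± 0.16 in treated and 14.64 ± 0.35 in untreated cells (SD, n = 2 each). VGF, a granin family gene induced by neurotrophins, stood at 11.90 and 11.97 in treated cells and 12.08 and 11.84 in untreated cells, with both treated values between the untreated ones. CHGA, chromogranin A, stood at 11.44 and 11.22 in treated cells and 11.54 and 11.15 in untreated cells, again with the treated values inside the untreated range. CHGB, chromogranin B, stood at 10.46 and 10.54 in treated cells and 10.83 and 10.25 in untreated cells, and its 2 untreated arrays lay on either side of both treated ones. SCG3, secretogranin III, a granin that ties chromogranin A to cholesterol-rich granule membrane, stood at 6.44 and 6.58 in treated cells and 6.78 and 6.15 in untreated cells, below the limit on every array.

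Among the processing genes, PAM had a log2 expression of 13.19 and 13.30 in treated cells and 13.29 and 12.83 in untreated cells. Both treated arrays lay above untreated replicate 2, and untreated replicate 1 lay between them. CPE stood at 10.76 and 10.89 in treated cells and 10.88 and 10.98 in untreated cells, the narrowest range over 4 arrays of the processing genes measured, and the groups overlapped. SCG5 stood at 5.58 and 5.39 in treated cells and 5.73 and 6.31 in untreated cells. It was the 1 gene of the 8 whose groups did not overlap, lower in treated cells, where 16.8% of all probe sets showed that order. All 4 values of SCG5 lay below the limit, so no fold is given for it.

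None of the 8 genes differed between treated and untreated cells in the limma test at an adjusted p under 0.05, and 0% of the 21448 probe sets did. At an unadjusted p under 0.05, 0 of the 8 were higher and 0 lower, where 2.20% of all probe sets were higher and 2.88% lower. The median difference of the 8 genes was -0.023 on the log2 scale, with 3 higher and 5 lower in treated cells, beside a median of -0.005 over all probe sets tested. For the 6 genes above the limit, the log2 difference, treated minus untreated, was 0.23 for SCG2 (95% confidence interval -0.32 to 0.78), 0.19 for PAM (-0.34 to 0.71), -0.02 for CHGA (-0.53 to 0.50), -0.03 for VGF (-0.48 to 0.43), -0.05 for CHGB (-0.61 to 0.52) and -0.11 for CPE (-0.54 to 0.33). As a ratio, SCG2 was 1.17 times as high in treated as in untreated cells (interval 0.802 to 1.72), and VGF 0.981 times (interval 0.716 to 1.35). Each of these 6 intervals lay within 2-fold in both directions, as did those of 95.3% of the probe sets above the limit and 87.8% of all probe sets. Limma's adjusted p ranged from 0.977 for SCG2 to 0.998 for CHGA and VGF. An exact permutation test of 1 gene over these 4 arrays has a smallest two-sided p of 0.333.

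**Figure D2:**
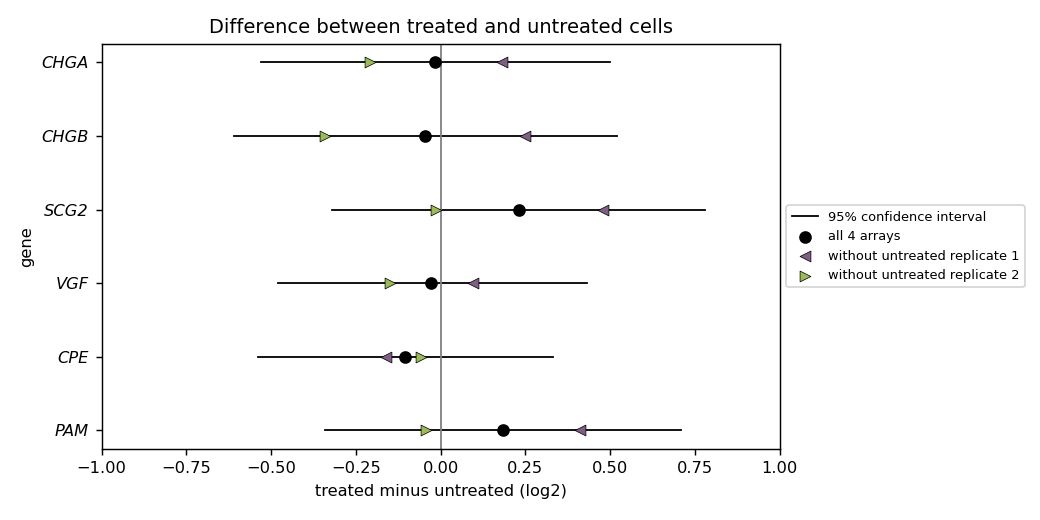
Treated minus untreated on the log2 scale (horizontal axis) for the 6 genes above the limit. Black points and lines are the values over 4 arrays with 95% confidence intervals, and triangles the values without untreated replicate 1 (left-pointing) or 2 (right-pointing); for 5 of the 6 genes these lie on opposite sides of 0, and CPE is negative in both.

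The signs of most of these differences depended on which untreated array was kept. Without untreated replicate 2 all 6 genes above the limit were lower in treated cells, by values that ran from -0.34 for CHGB to -0.014 for SCG2. Without untreated replicate 1, SCG2 was higher in treated cells by 0.48, PAM by 0.41, CHGB by 0.25, CHGA by 0.18 and VGF by 0.094, and CPE stood at -0.16. The median over the 8 genes was then 0.213, and it was -0.181 without untreated replicate 2. No gene passed the test in either case.

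**Figure D3:**
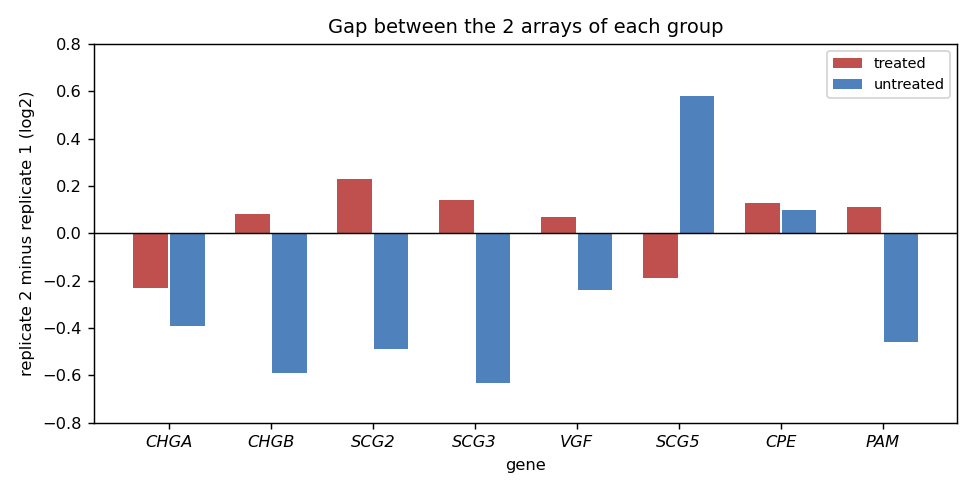
Replicate 2 minus replicate 1 on the log2 scale (vertical axis) within the treated arrays (red, left) and within the untreated arrays (blue, right) for the 8 measured genes. The untreated gap is negative for 6 genes, as low as -0.63 for SCG3, while the treated gaps run from -0.23 to 0.23. SCG3 and SCG5 lie below the negative-control limit on every array.

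All 5 granins were lower on untreated replicate 2 than on untreated replicate 1. Untreated replicate 2 was the lowest of the 4 arrays for all 5 granins and for PAM, 6 of the 8 genes, where it was the lowest for 28.3% of all probe sets and for 38.1% of those above the limit. Untreated replicate 2 minus untreated replicate 1 was -0.63 for SCG3, -0.59 for CHGB, -0.49 for SCG2, -0.46 for PAM, -0.39 for CHGA and -0.24 for VGF on the log2 scale. CPE (0.10) and SCG5 (0.58) ran the other way. SCG3 and SCG5 lay below the negative-control limit on every array. Between the treated arrays, the same gaps ran from -0.23 for CHGA to 0.23 for SCG2. The median absolute gap over the 8 genes was 0.138 between the treated arrays and 0.474 between the untreated arrays, while over all probe sets it was 0.198 between the treated and 0.244 between the untreated arrays. Of the markers listed below, untreated replicate 2 was the lowest for 6 of 8 adrenergic, 4 of 8 mesenchymal and 0 of 11 of other cell types. It was the lowest for 35 of the 115 genes of the 5 further lists below, 9 of 18 regulators among them. This array also had the highest own limit, 7.64, with 8808 probe sets above it against 9413 to 9657 on the other arrays. What set untreated replicate 2 apart was not tested.

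The labelled cell type was set against lists of markers. All 8 mesenchymal neuroblastoma markers exceeded the limit, among them VIM, the vimentin gene, at 15.61 in treated and 15.50 in untreated cells. Of 8 adrenergic markers measured, 6 exceeded it, among them HAND2 and GATA3. Among those for enzymes of catecholamine synthesis, DDC also exceeded it, at 11.65 in treated and 11.73 in untreated cells. TH and DBH, which encode other such enzymes, were above it on no array. Of 11 markers of other cell types, PTPRC, the leukocyte common antigen gene, stood at 12.64 in treated and 12.78 in untreated cells and CD68, a macrophage marker, at 10.75 and 10.65 in treated and untreated cells. The other 9, CD3E, EPCAM and PECAM1 among them, were above the limit on no array. The mean log2 expression of these 11 markers was 5.75 and 5.93 on the treated and 5.90 and 6.13 on the untreated arrays, and the part of other cells in the values was not tested. What the PTPRC signal measures in these cells was not tested either. Fewer cells of a type and less RNA per cell cannot be told apart in such samples.

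**Figure D4:**
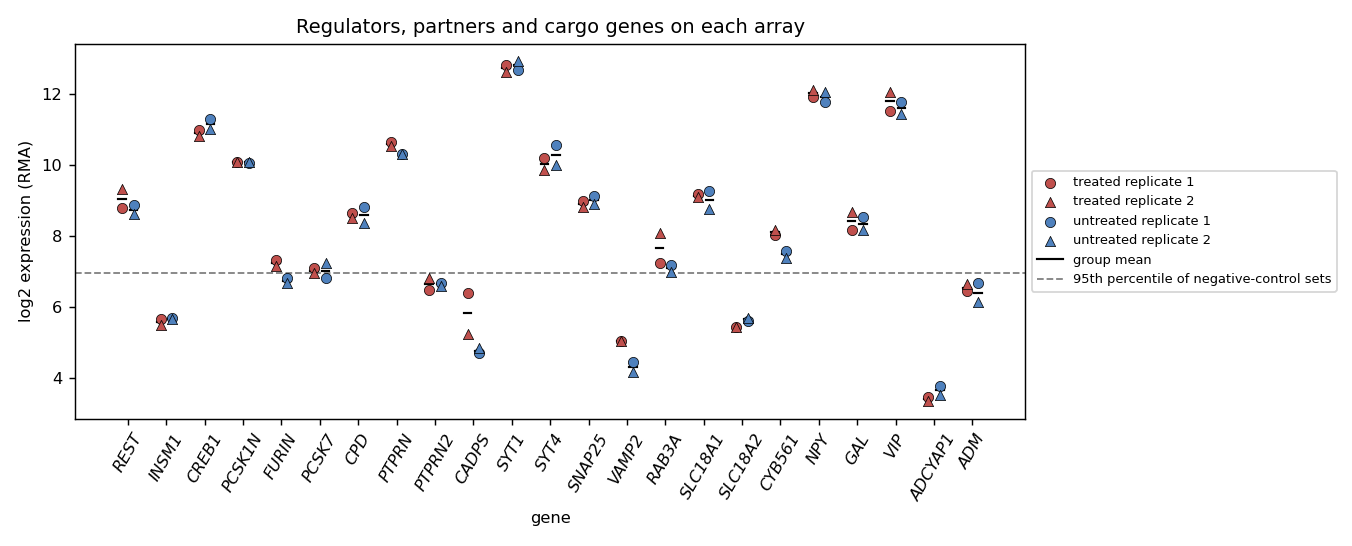
Log2 expression (vertical axis) of 23 further granule, cargo and regulator genes on each array, with treated arrays in red left of untreated arrays in blue, circles for replicate 1, triangles for replicate 2, bars for the means and a dashed line at the limit of 6.96. SYT1, NPY and VIP lie far above the line in both groups, while INSM1, VAMP2, SLC18A2 and ADCYAP1 lie below it on all 4 arrays.

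The wider pathway was described by 25 further genes, fixed by name, of which 23 were measured and 15 exceeded an array's own limit at least once. PCSK1N, which encodes proSAAS, the granin-like inhibitor of the PCSK1 convertase, stood at 10.08 ± 0.02 in treated and 10.07 ± 0.02 in untreated cells (SD, n = 2 each), a log2 difference of 0.01 (interval -0.41 to 0.44). CPD, a carboxypeptidase of the trans-Golgi network, stood at 8.59 ± 0.10 in treated and 8.60 ± 0.33 in untreated cells (SD, n = 2 each). FURIN, the general convertase of the secretory pathway, stood at 7.33 and 7.15 in treated cells and 6.81 and 6.67 in untreated cells. The groups of FURIN did not overlap, higher in treated cells as for 16.4% of all probe sets. It exceeded the array's own limit on treated replicate 1 and on no untreated array, so no fold is given for it; limma's adjusted p was 0.948. PCSK7, another convertase, exceeded its own limit on no array, at 7.03 in treated and 7.02 in untreated cells.

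Among the peptide cargo, NPY, neuropeptide Y, stood at 11.92 and 12.10 in treated cells and 11.76 and 12.06 in untreated cells, with overlapping groups. VIP, vasoactive intestinal peptide, stood at 11.52 and 12.06 in treated cells and 11.78 and 11.42 in untreated cells, and GAL, galanin, at 8.16 and 8.68 in treated cells and 8.54 and 8.16 in untreated cells. The arrays of each group differed by more than the group means for all 3 peptides. The log2 differences were 0.10 for NPY (interval -0.38 to 0.58), 0.19 for VIP (-0.41 to 0.78) and 0.06 for GAL (-0.53 to 0.65). ADCYAP1, the precursor of the peptide PACAP, and ADM, adrenomedullin, were above their own limit on no array.

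At the granule membrane, PTPRN, a phosphatase-like protein of dense-core granules, stood at 10.63 and 10.52 in treated cells and 10.31 and 10.32 in untreated cells. Its groups did not overlap, higher in treated cells as for 16.4% of all probe sets, and its log2 difference was 0.26 (interval -0.17 to 0.69). CYB561, a cytochrome that supplies electrons inside granules and so serves the amidating enzyme, stood at 8.04 and 8.16 in treated cells and 7.59 and 7.39 in untreated cells. These groups also did not overlap, with a log2 difference of 0.61 (interval 0.16 to 1.06) and a limma adjusted p of 0.948. SLC18A1, a vesicular monoamine transporter, stood at 9.14 ± 0.05 in treated and 9.01 ± 0.35 in untreated cells (SD, n = 2 each). SLC18A2, the other such transporter, and PTPRN2 were above their own limit on no array.

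Of the release genes, SYT1, a calcium sensor of exocytosis, stood at 12.71 ± 0.16 in treated and 12.79 ± 0.18 in untreated cells (SD, n = 2 each), and SYT4, another synaptotagmin, at 10.03 ± 0.22 and 10.28 ± 0.39 in treated and untreated cells (SD, n = 2 each). SNAP25, a SNARE of the plasma membrane, stood at 8.90 ± 0.13 in treated and 9.02 ± 0.17 in untreated cells (SD, n = 2 each). RAB3A, a small GTPase of granules, stood at 7.24 and 8.08 in treated cells and 7.19 and 7.0 in untreated cells. The groups of RAB3A did not overlap, higher in treated cells as for 16.4% of all probe sets. Treated replicate 2 was far above the other arrays, and limma's adjusted p was 0.948. RAB3A exceeded the array's own limit on both treated arrays and on neither untreated array, so no fold is given for it. CADPS, a priming factor of dense-core granules, and VAMP2, a vesicle SNARE, were below the limit on every array, at 5.82 and 5.05 in treated cells and 4.77 and 4.32 in untreated cells.

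Of the regulators, REST, the repressor that keeps many neuronal and granin genes silent in other tissues, stood at 8.80 and 9.31 in treated cells and 8.87 and 8.61 in untreated cells. It exceeded the limit on all 4 arrays, as did CHGA, CHGB, SCG2 and VGF, while SCG3 lay below it on every array. Whether REST bears on the level of the granin genes was not tested. The log2 difference of REST was 0.31 (interval -0.25 to 0.88), which was 0.058 without treated replicate 2 and 0.57 without treated replicate 1. CREB1, a factor that binds cAMP response elements, stood at 10.97 and 10.82 in treated cells and 11.28 and 11.0 in untreated cells. Its groups did not overlap, lower in treated cells as for 16.8% of all probe sets. The log2 difference of CREB1 was -0.24 (interval -0.71 to 0.23), which was -0.10 without untreated replicate 1 and -0.38 without untreated replicate 2, and limma's adjusted p was 0.963. INSM1, a transcription factor of neuroendocrine differentiation, was above its own limit on no array, at 5.58 in treated and 5.68 in untreated cells.

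**Figure D5:**
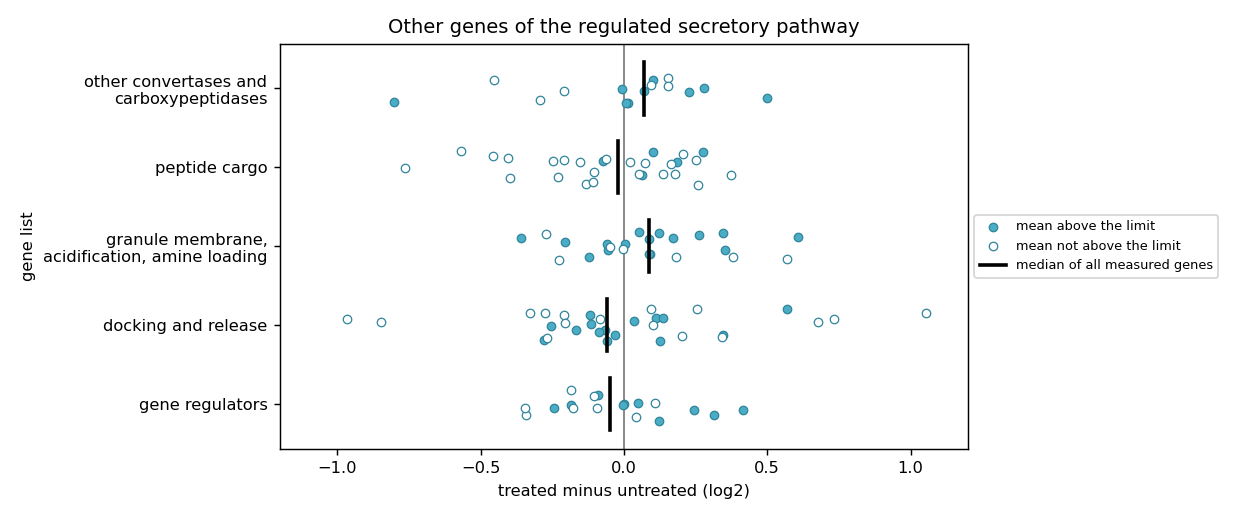
Treated minus untreated on the log2 scale (horizontal axis) for the 115 measured genes of 5 lists of the regulated secretory pathway. Filled points are genes whose mean exceeds the limit, open points those whose mean does not, and bars the list medians, which lie between -0.058 and 0.087.

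None of the 115 measured genes of 5 further lists passed the limma test, and 60 were higher and 55 lower in treated cells. The medians on the log2 scale were 0.069 for 15 convertases, carboxypeptidases and their inhibitor (9 above the limit), -0.021 for 28 peptide precursors (5 above), 0.087 for 23 genes of granule membrane and loading (16 above), -0.058 for 31 docking and release genes (15 above) and -0.047 for 18 regulators (10 above). Above the limit here means that a gene's mean over the 4 arrays exceeded 6.96. PCSK7, so counted, exceeded an array's own limit on no array. The median over all probe sets was -0.005. With 1 array left out these medians ran from -0.014 to 0.061, -0.075 to -0.012, 0.02 to 0.104, -0.041 to -0.013 and -0.11 to 0.006 in the same order of lists. At an unadjusted p under 0.05, 5 of the 115 genes were higher in treated cells, namely FURIN, CYB561, SV2C, CADPS and VAMP2, and 5 lower, namely CPZ, CALCA, PDYN, GHRH and CPLX2, where 2.20% of all probe sets were higher and 2.88% lower. Of these 10, SV2C, CPZ, CALCA, PDYN, GHRH and CPLX2 were named after their values were seen. FURIN, CYB561 and CPZ exceeded an array's own limit on 1, 3 and 1 of the 4 arrays, and the other 7 on none.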

How the data were processed

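RNA of 4 samples of SK-N-AS cells was measured on Affymetrix whole-transcript arrays, with a biotin label, per the labels' protocols. The authors deposited 1 log2 value for each probe set. Transcriptome Analysis Console 4.0.1.36 and RMA are named in the submitters' processing notes. RMA includes quantile normalization between arrays, so it would remove a change shared by most genes. That the scale is log2 follows from the values' range. Arrays give no depth, and their number limits the precision.

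Of 24351 probe sets, 2903 controls were left out and 21448 tested with no filter. The platform annotation names 17709 by 1 symbol, and the other 3739, with no symbol or more than 1, were left unnamed here. All 17709 gene identifiers matched RefSeq (GRCh38.p14), which changed 0 symbols. Where a symbol had several (20 symbols), the brightest was used. Groups were compared in R 4.3.3 with limma 3.58.1 (lmFit, eBayes), two-sided, with Benjamini-Hochberg adjustment over all probe sets (2 residual and 4.90 prior degrees of freedom). The fit was run on simulated data with normal errors and variances drawn from its own fitted prior. That run checked bias and interval coverage under that prior only. Promoter motifs were searched as exact letters on both strands.

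The genes, lists and background limit were chosen with earlier results of these data known. Named genes were the 10 chosen genes and 25 others fixed by name, and a gene above its own limit on no array, or on none of a group's arrays, is given without a fold. Alternatives were other normalizations, a filter on dim probe sets, robust and trended variance priors, a block for the replicate number, leaving out each array, the mean of probe sets and other limits.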

Additional observations from a re-analysis of the deposited data

How the results depend on the processing

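None of the 8 granule genes or the 115 genes of the further lists passed limma's adjusted threshold under other normalizations (0 in each). The same held for the filter on dim probe sets, robust and trended variance priors and the replicate block. The mean of probe sets kept the adjusted p-values of the first fit, so its count of 0 was fixed. The number of granule genes above the negative-control limit in untreated cells was 6 with the limit at the 95th percentile, 7 at the 90th (6.24) and 6 at the 99th (9.42), with each array's own limit, after median centring and with either untreated array left out. The replicate numbers gave no sign of pairing the arrays (correlation of deviations -0.001 over 2 pairs). With the replicate number as a block, 0 of the 8 genes passed. Their median difference of -0.023 could not change under the block, since each replicate number occurs once in each group.

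Leaving out 1 array in turn moved the median of the 8 genes over a range of -0.181 to 0.213. The ranges of single log2 differences that changed sign were -0.21 to 0.18 for CHGA, -0.34 to 0.25 for CHGB, -0.014 to 0.48 for SCG2, -0.15 to 0.094 for VGF, -0.044 to 0.41 for PAM, -0.24 to 0.22 for CPD, -0.21 to 0.04 for SYT1, -0.53 to 0.019 for SYT4, -0.23 to 0.0036 for SNAP25, -0.12 to 0.37 for SLC18A1, -0.048 to 0.25 for NPY, -0.19 to 0.32 for GAL and -0.088 to 0.46 for VIP. List medians ranged from -0.014 (without treated replicate 1) to 0.061 for convertases and carboxypeptidases, from -0.11 (without untreated replicate 2) to 0.006 (without treated replicate 1) for regulators, from 0.02 (without untreated replicate 2) to 0.104 for granule membrane and loading, from -0.041 to -0.013 (without untreated replicate 1) for docking and release, and from -0.075 (without treated replicate 2) to -0.012 for cargo. With fewer arrays, the lone array of a group is assumed to vary like the others.

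PCSK1N turned to -0.028 after quantile normalization and -0.031 after cyclic loess. The cargo median turned to 0.005 after either, and to 0.102 over the 5 genes left by the filter on dim probe sets. That filter left 10 regulators, with a median of 0.024. The cause of the changes under the normalizations was not tested.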
